A study of Mus musculus with 42 samples.

Results

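The genes described here encode the signal transducers and activators of transcription (STATs) and the Janus kinases (JAKs): Stat2, Stat3, Stat4, Stat5a, Stat5b, Stat6, Jak1, Jak2 and Tyk2. These 9 genes were taken by their symbols from 21897 protein-coding mouse genes. Chromatin immunoprecipitation sequencing (ChIP-seq) had been done with antibodies to RNA polymerase II (Pol II), the enzyme that transcribes these genes, and to H3K27ac, an acetylated histone tail found at active promoters and enhancers. The cells were bone marrow-derived macrophages (BMDMs), grown from marrow of male C57Bl6/J mice aged 6–12 weeks in medium conditioned by L929 cells, from wild-type (WT) mice or mice without the nuclear receptor Nur77 (gene Nr4a1; Nur77-KO). They were left untreated (0 h) or given 100 ng/ml lipopolysaccharide (LPS), which bacteria carry in their outer membrane and macrophages sense through Toll-like receptor 4, for 1 or 18 h. Each genotype and time had 3 libraries per antibody and 1 input library of chromatin without immunoprecipitation, which makes 36 ChIP and 6 input libraries.

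The WT mice were littermates of the knockouts. The knockout was of the whole body, made by crossing a loxP-flanked Nr4a1 line with mice that express Cre from the human cytomegalovirus promoter. By the study's methods the animals used no longer carried Cre, whereas the genotype label of the knockout samples reads only "cre". The study's methods speak of biological replicates for its ChIP-seq. Neither they nor the labels say whether the libraries of a group came from separate mice. P-values therefore measure the spread between these libraries, which may be technical. Cultures were measured in bulk, so fewer cells with a mark and less of the mark per cell cannot be told apart.

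Cytokine receptors of the interferon, interleukin and colony-stimulating factor families have no kinase of their own. JAKs bound to their inner tails phosphorylate each other, the receptor and a STAT, and the phosphorylated STATs pair, enter the nucleus and bind DNA. In macrophages, Tyk2 and Jak1 serve the type I interferon receptor, which signals through a complex that contains STAT2 and IRF9. Jak2 serves the receptors for GM-CSF and interferon gamma, STAT5A and STAT5B act below GM-CSF, STAT3 below interleukin 6 and 10, and STAT6 below interleukin 4 and 13. STAT4 is known mainly from T and natural killer cells, where it acts below interleukin 12.

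A Pol II value is the number of normalized tags (sequenced fragments, scaled to 10 M per library) in the called regions over the gene and 500 bp at each end. Regions that reach past this window give it a share in proportion to the overlap. An H3K27ac value is the same sum within 2500 bp of the gene's start. Tests used limma on log2(tags + 10), so that a log2 change understates the change of a low gene. P-values were adjusted over all genes tested (Benjamini-Hochberg), and an adjusted p under 0.05 made a call. Whether groups overlapped is stated as a description of single genes, and the share of all genes without overlap is not given.

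Library totals were 21.7–36.1 M tags for Pol II, 13.5–55.4 M for H3K27ac and 25.6–45.3 M for input (M is mega). H3K27ac libraries were deeper from Nur77-KO (23.6–55.4 M) than from WT (13.5–31.1 M). All 8 listed macrophage genes, such as Csf1r and Adgre1, had Pol II and H3K27ac in every library, whereas Cd3e and Cd3g of T cells and Pax5 of B cells were at 0 with both antibodies. Of the same lists, Cd3d of T cells and Cd79a of B cells had Pol II in every library, and Ms4a1 of B cells had H3K27ac in every library. Summed Pol II was 22548–48878 tags over the 8 macrophage genes, 27.4–355 over 4 T cell genes and 41.4–161 over 4 B cell genes, and summed H3K27ac was 5274–8123, 0 and 106–363 tags over the same lists. The part of other cells in the results was not tested. Pol II over Nr4a1 itself was 188–208 tags in untreated WT and 70.2–87.8 in untreated Nur77-KO libraries (adjusted p = 1.2e-04). After 1 h of LPS it was 23.0–30.4 in WT and 33.5–39.0 in Nur77-KO libraries and after 18 h 0–7.46 and 0. In untreated cells the groups did not overlap, and at 1 h the libraries labelled Nur77-KO were not the lower ones. Which part of Nr4a1 was deleted is not given in the sources used here.

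A pair of Nur77-KO H3K27ac groups held libraries that stood apart. Over 10437 genes, replicate 1 of Nur77-KO at 1 h correlated with replicates 2 and 3 of its group at r = 0.910–0.912 and with the WT libraries of 1 h at 0.978 to 0.98. The r of replicates 2 and 3 was 0.991 between themselves and 0.903–0.905 to WT of 1 h. Replicate 1 of Nur77-KO at 18 h correlated with the other two of its group at 0.913–0.914, whose r was 0.993 between themselves and 0.979–0.982 to WT of 18 h. This library correlated at 0.904–0.905 with replicates 2 and 3 of Nur77-KO at 1 h and at 0.818 with replicate 1 of that group. Whether libraries were exchanged or mixed was not tested. Genotype differences in H3K27ac, and the H3K27ac counts after LPS in Nur77-KO, are given with and without these libraries.

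The genes lie on 6 chromosomes (GRCm38, which is mm10). Stat5b (chr11:100780731-100850724, minus strand), Stat5a (chr11:100859351-100885169, plus strand) and Stat3 (chr11:100885098-100939540, minus strand) form 1 cluster, in which the ends of Stat5a and Stat3 overlap. Stat2 (chr10:128270559-128292849) and Stat6 (chr10:127642986-127660957) lie on the plus strand of chromosome 10, and Stat4 (chr1:51987148-52107189) on the plus strand of chromosome 1. Of the kinases, Jak1 (chr4:101152367-101265282) and Tyk2 (chr9:21104068-21131243) are on the minus strand and Jak2 (chr19:29251828-29313080) is on the plus strand. The windows of Stat3 and Stat5a share 572 bp, that of Stat6 shares 540 bp with Nab2, and that of Jak1 shares 504 bp with Raver2. The start window of Stat2 shares 1483 bp with Apof and that of Tyk2 shares 522 bp with Cdc37.

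Upstream sequences were read from RefSeq promoters (GRCm38.p6), which hold 12 starts for the 9 genes. Each window, from 250 bases before to 50 after a start, was searched on both strands for the gamma-activated site bound by STAT dimers (TTCNNNGAA), the interferon response element (GAAA, any 2 bases, GAAA), the AP-1 site (TGAGTCA or TGACTCA), the NBRE that Nur77 binds as a monomer (AAAGGTCA) and the NF-kB site. Among all 32851 mouse promoters of this length, 8.3% hold the first, 3.44% the interferon element, 5.2% the AP-1 site, 1.51% the NBRE and 8.46% the NF-kB site. The 250 upstream bases of 5 starts are shown, 5′ to 3′ on the strand of the gene and with matches in capitals: Jak2, whose Pol II moved most with LPS, Stat2 for its interferon element, and Stat6 and the second starts of Stat5a and Stat5b for the NBRE.
Jak2, chr19:29251553-29251802: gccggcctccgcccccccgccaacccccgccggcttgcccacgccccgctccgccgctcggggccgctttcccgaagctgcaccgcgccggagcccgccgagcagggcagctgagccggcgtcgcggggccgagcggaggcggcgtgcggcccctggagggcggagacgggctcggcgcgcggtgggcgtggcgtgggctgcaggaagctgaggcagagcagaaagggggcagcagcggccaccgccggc
Stat2, chr10:128270248-128270497: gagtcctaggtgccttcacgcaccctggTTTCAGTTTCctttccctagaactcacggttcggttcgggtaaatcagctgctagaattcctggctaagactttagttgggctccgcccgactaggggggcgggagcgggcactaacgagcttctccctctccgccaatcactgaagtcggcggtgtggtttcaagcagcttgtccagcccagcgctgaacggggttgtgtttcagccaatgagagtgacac
Stat6, chr10:127642736-127642985: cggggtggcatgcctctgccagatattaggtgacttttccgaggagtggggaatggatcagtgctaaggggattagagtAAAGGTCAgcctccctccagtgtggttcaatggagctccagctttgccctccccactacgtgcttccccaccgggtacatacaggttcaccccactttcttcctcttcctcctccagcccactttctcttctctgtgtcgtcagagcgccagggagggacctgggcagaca
Stat5a second start, chr11:100860234-100860483: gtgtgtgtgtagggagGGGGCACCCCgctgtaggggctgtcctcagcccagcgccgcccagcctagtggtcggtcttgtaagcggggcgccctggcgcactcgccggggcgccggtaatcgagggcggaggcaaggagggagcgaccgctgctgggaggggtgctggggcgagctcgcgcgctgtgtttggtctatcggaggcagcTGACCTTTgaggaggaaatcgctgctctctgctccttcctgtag
Stat5b second start, chr11:100822571-100822820: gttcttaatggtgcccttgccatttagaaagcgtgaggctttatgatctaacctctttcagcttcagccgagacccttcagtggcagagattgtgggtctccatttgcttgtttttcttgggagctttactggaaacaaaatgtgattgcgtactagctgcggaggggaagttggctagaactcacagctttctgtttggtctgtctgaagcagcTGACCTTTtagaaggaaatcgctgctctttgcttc

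The Jak2 window held none of these motifs. The Stat2 element lies from position -222 and reads TTTCAGTTTC, which is the element on the minus strand. An NBRE lies from position -171 of Stat6 on the plus strand, and from -44 and -35 of the second starts of Stat5a and Stat5b on the minus strand (TGACCTTT). Around the last pair, 38 of 43 bases were the same in Stat5a and Stat5b (88.4%). The second Stat5a window also held an NF-kB match that reads on both strands (GGGGCACCCC, from -234). A second start of Stat4 held the remaining match, an interferon element from -97 (GAAAGTGAAA). A match is a string of letters in a window, and no binding of Nur77 or of a STAT was measured in the libraries used here.

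In untreated WT macrophages, Stat6 carried the most Pol II per length, with 92.2 ± 4.26 normalized tags per kb (SD, n = 3). In every Pol II library a single region of 27.9–31.2 kb lay over Stat6, of which 60.9–67.9% was in its window, so that its values at all times are an even share of a region that ran past the gene. Stat2 followed with 25.6 ± 2.80 and Tyk2 with 13.4 ± 1.77 tags per kb. Below them were Jak1 (7.38 ± 1.21), Stat5b (6.60 ± 0.493), Stat5a (6.02 ± 0.322) and Stat3 (4.88 ± 0.518), in which only the neighbours Stat5a and Stat3 were further apart than the sum of their SDs. Jak2 was lowest of the genes with a steady signal, at 2.51 ± 0.379 tags per kb. Stat4 was listed at 0 in 15 of 18 Pol II libraries and at 5.82–8.05 tags over its whole length in the other 3, below its input values of 24.8–163, and at 0 in all 18 H3K27ac libraries. It could therefore not be tested, and the counts below are over the 8 other genes.

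After 1 h of LPS this order was overturned in WT cells. Stat5a (98.2 ± 1.82 tags per kb) and Jak2 (96.2 ± 1.22) then lay above Stat6 (65.5) and Stat2 (64.2), with Tyk2 at 44.8, Jak1 at 22, Stat3 at 13.8 and Stat5b at 13.4. At 18 h Stat2 led with 151 tags per kb, before Stat6 (86.5), Jak2 (49.3), Tyk2 (47.4) and Stat3 (28.7), and Stat5a (16.5) had returned to the level of Stat5b (16.8).

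LPS raised Pol II at 7 of the 8 genes within 1 h in WT cells and lowered it at Stat6. Their median log2 change was 1.53, beside -0.82 over all 13240 genes tested, of which 18.5% were called higher and 68.3% lower. Jak2 and Stat5a moved most.

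Jak2, which lay nearly bare in untreated cells, rose from 138, 149 and 183 normalized tags at 0 h to 5915, 5991 and 6067 at 1 h (log2 change 5.18 ± 0.07, SE; adjusted p = 1.1e-19). After 18 h the libraries held 3015, 3061 and 3129 tags (4.22 ± 0.07, adjusted p = 1.9e-18). The 0 h libraries overlapped the range of the untreated inputs (82.0 in WT and 210 in Nur77-KO), and the LPS libraries lay far above every input (35.6–417). No fold is therefore given over the untreated level of Jak2, and its log2 changes depend on a level not shown to exceed input. At 0 h the called regions covered 11.6–14.2% of the WT Jak2 window, and after LPS they covered all of it.

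Tyk2 rose from 321, 390 and 418 tags to 1296, 1252 and 1239 at 1 h (1.73 ± 0.11, adjusted p = 5.5e-11) and stayed there at 18 h, with 1323, 1328 and 1352. Jak1, the longest of the kinase genes, rose from 683, 937 and 902 tags to 2577, 2481 and 2473 (1.58 ± 0.10, adjusted p = 1e-10). Its 18 h values of 2160, 2309 and 2291 were 2.68 times the untreated mean. For each of the 3 kinase genes, no LPS library overlapped an untreated library.

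**Figure D1:**
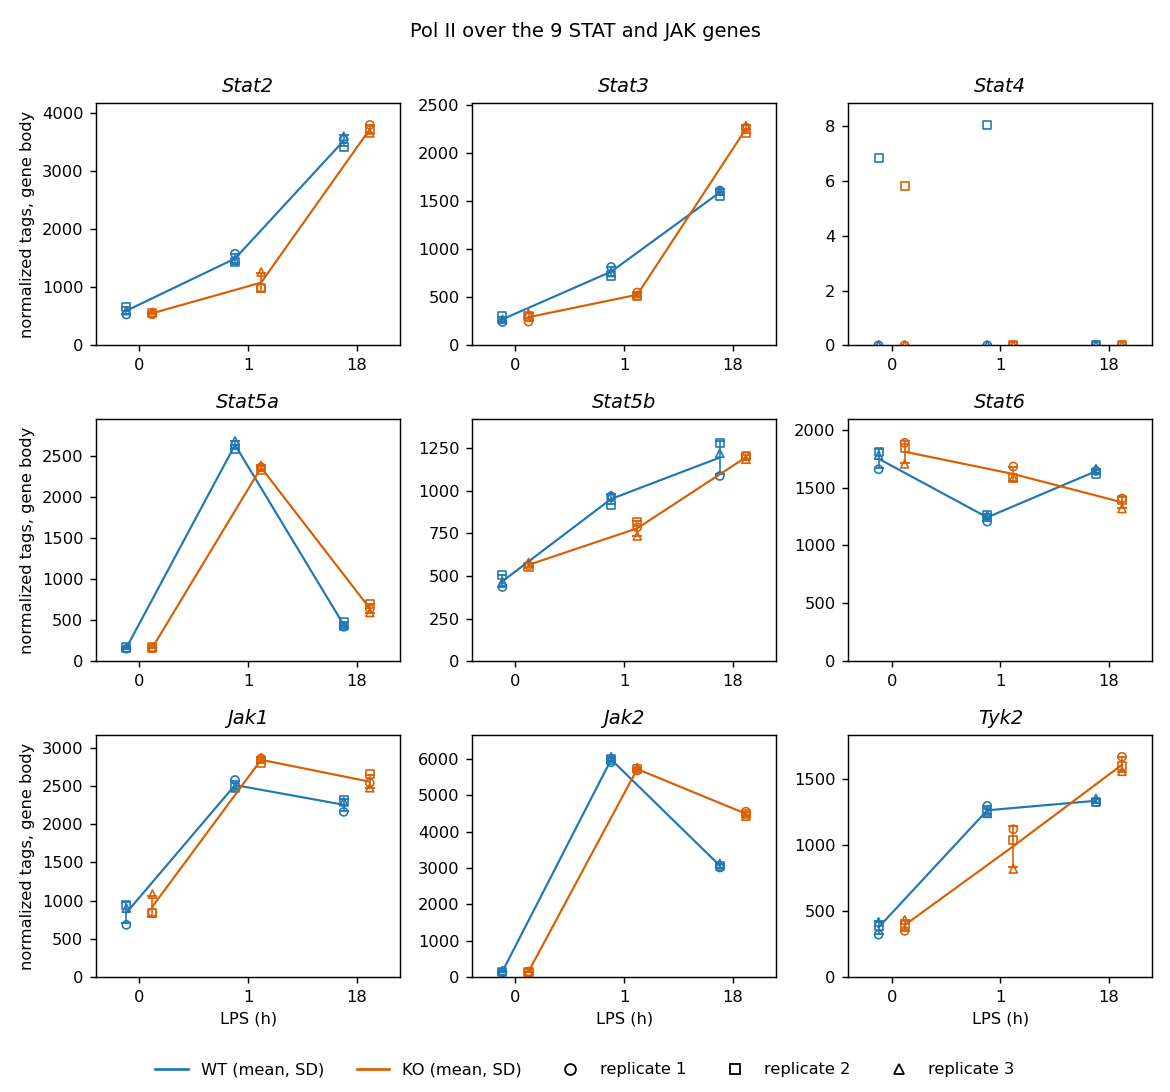
Pol II over each gene (normalized tags over the gene and 500 bp at each end) against hours of LPS, with 1 panel per gene, 1 point per library and replicate number by marker shape. Lines join the means of 3 WT (blue) or 3 Nur77-KO (orange) libraries and bars are SDs, without mean or bar for Stat4, which was mostly listed at 0. Jak2 and Stat5a were highest at 1 h, Stat2 and Stat3 at 18 h, and the genotypes lay apart mainly after LPS.

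Among the STAT genes, Stat5a stood highest at 1 h. Its libraries held 152, 167 and 166 tags at 0 h, 2634, 2586 and 2684 at 1 h (3.95 ± 0.07, adjusted p = 2.2e-18), and 419, 480 and 430 at 18 h (1.40 ± 0.07, adjusted p = 7e-12). The neighbouring Stat5b, its near relative in sequence, moved less: 435, 505 and 467 tags at 0 h, 966, 915 and 972 at 1 h (1.01 ± 0.07, adjusted p = 3.4e-10), and 1086, 1277 and 1219 at 18 h. Thus Stat5a fell back after 1 h while the Stat5b mean of 18 h lay above that of 1 h.

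Stat2 and Stat3 held more Pol II at 18 h than at 1 h. Stat2 held 530, 660 and 596 tags at 0 h, 1578, 1438 and 1467 at 1 h (1.32 ± 0.09, adjusted p = 1.5e-10), and 3551, 3425 and 3603 at 18 h (2.55 ± 0.09, adjusted p = 2.7e-14). Stat3 held 242, 299 and 270 tags at 0 h, 814, 725 and 756 at 1 h (1.47 ± 0.09, adjusted p = 6.4e-11), and 1609, 1553 and 1606 at 18 h (2.52 ± 0.09, adjusted p = 6.7e-14). In the 5-prime part of Stat3, away from a region that covered Stat5a and ran into its end, the change at 1 h was 0.69 (adjusted p = 9.7e-06), and within 500 bp of the start it was 0.04 (adjusted p = 0.767). Over the whole window of both genes the 3 times did not overlap, and the 18 h mean was 5.92 times the untreated mean at Stat2 and 5.88 times at Stat3.

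Stat6 moved the other way. It fell from 1658, 1811 and 1780 tags to 1206, 1261 and 1261 at 1 h (-0.49 ± 0.06, adjusted p = 2.2e-07). At 18 h its libraries were back at 1643, 1618 and 1663 tags, which overlapped the untreated libraries (-0.09 ± 0.06, adjusted p = 0.16). Over 16 alternative settings this change ran from -0.47 to -0.07, and 3 of them called it lower. Its fall at 1 h was smaller than that of the median gene: with the libraries centred on their medians it became a rise of 0.31, whereas the other genes kept their sign. Over 18 h, 7 of the 8 genes rose and none fell, with a median log2 change of 1.62 beside 0.00 over all 13359 genes tested (33.2% higher and 33.3% lower). With centred libraries and with quantile normalization, 7 were called higher and Stat6 lower. Over all genes, 31.1% were then higher and 37.6% lower with centring, and 32.55% and 34.7% with quantile normalization.

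These changes describe the whole gene. Within 500 bp of the start, Stat5b, over which 10–15 separate regions lay at 1 h in WT, had a log2 change of -0.03 at that time. At Jak1 the called regions covered 98.2–100% of the window in every library after LPS, so that the tags assigned to its start are an average of the gene. Pol II regions after LPS were long, such as up to 123 kb at Jak1, and many overlapped a region also called in an input library. With all such regions left out, the change at 1 h in WT turned negative at Stat3, Stat5a, Jak1, Jak2 and Tyk2, while Stat2 and Stat6 had no value.

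The tags were placed differently along the genes before and after LPS. In untreated WT cells, the 1000 bp around the Jak2 start held 28.8 ± 2.63 of its 156 ± 23.6 tags, and after 1 h they held 96.2 ± 1.22 of 5991 ± 76.0, an average of a region that then ran through the whole gene. At Stat3 the same window held 25.0 ± 3.86 tags at 0 h and 26 ± 3.13 at 1 h, while the whole gene held 270.3 ± 28.7 and 765 ± 45.4. At 18 h its 28.7 ± 0.565 tags were the average of a region over the whole gene and say nothing of the start. Beyond the end of Stat5b, from 500 to 3000 bp, WT libraries held 41.4, 22.1 and 35.4 tags at 1 h and Nur77-KO libraries 11.0, 7.12 and 6.03, while at 18 h the means were 84.1 ± 6.84 and 88.0 ± 2.24. The values beyond the end are a description and were not tested. The window at the start was tested as an alternative setting.

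Nur77-KO macrophages answered LPS with the same directions. At 1 h, 7 genes were called higher and Stat6 lower (-0.16, adjusted p = 0.013), with a median log2 change of 1.13 beside -0.62 over 13267 genes (20.6% higher, 62.2% lower). The Stat6 call at 1 h was lost without Nur77-KO replicate 1 at 0 h (-0.13, adjusted p = 0.0611), and with libraries centred on their medians it became a called rise (0.41). At 18 h the count was again 7 higher and Stat6 lower (-0.40 ± 0.06, adjusted p = 5.3e-06), with a median of 1.95 beside -0.18 over 13417 genes (28% higher, 42.1% lower). Jak2 went from 150.4, 149 and 155 tags, below the untreated Nur77-KO input, to 5689, 5727 and 5768 at 1 h and 4556, 4503 and 4433 at 18 h. Stat5a rose 14.2 and 3.87 times. Stat3 rose 1.80 times at 1 h and 7.71 times at 18 h, but its call at 1 h was lost in the 5-prime part of the gene (-0.03, adjusted p = 0.82), away from a region that covered Stat5a and ran into the end of Stat3.

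**Figure D2:**
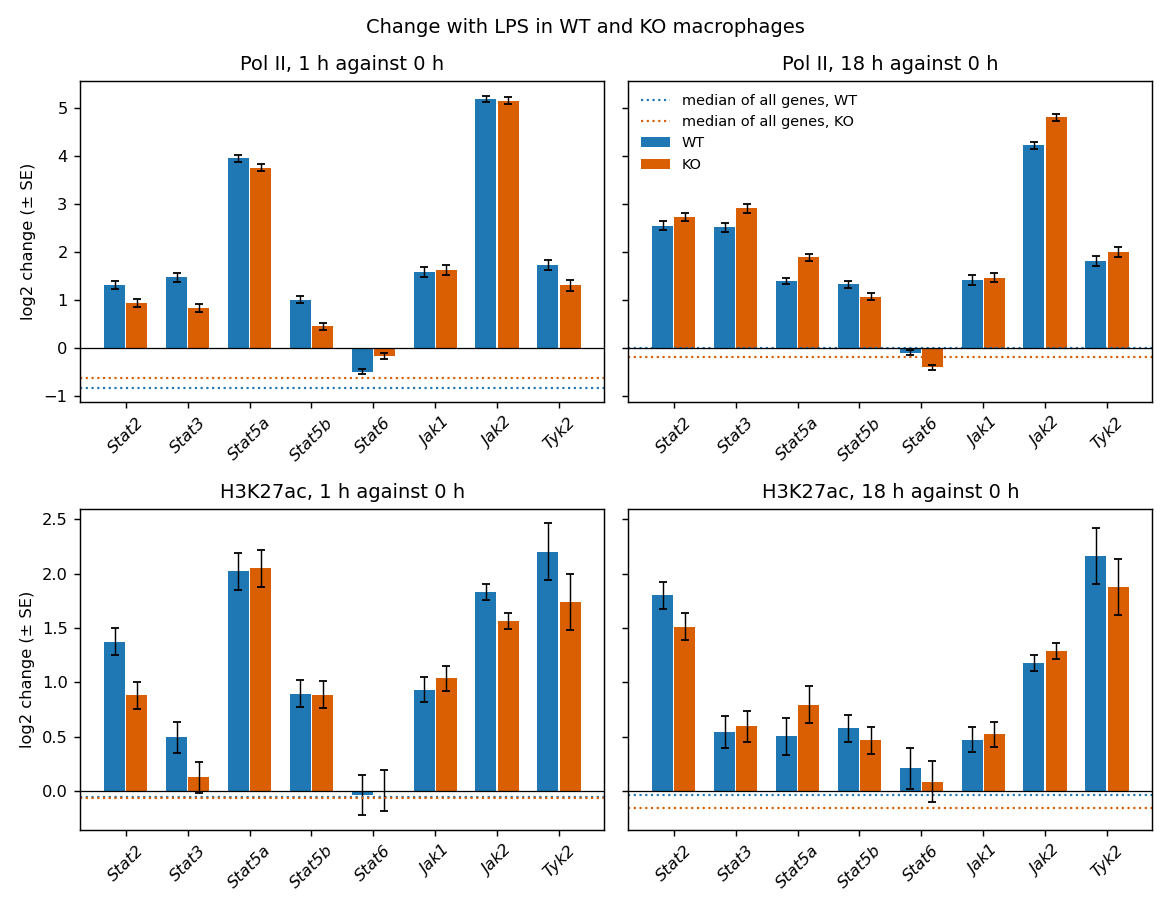
Log2 change of the 8 tested genes after 1 h and 18 h of LPS against 0 h for Pol II and H3K27ac, in WT (blue) and Nur77-KO (orange), as bars from 0 with SE from limma on log2(tags + 10); dotted lines are the median of all genes tested. At 1 h the Pol II bars of Stat2, Stat3 and Stat5b were shorter in Nur77-KO, and at 18 h those of Jak2, Stat3 and Stat5a were longer.

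Whether the response to LPS differed with genotype was tested as the interaction of genotype and time. At 1 h the rise was smaller in Nur77-KO at Stat3 (difference of log2 changes -0.64 ± 0.13, adjusted p = 0.003), Stat5b (-0.55 ± 0.10, adjusted p = 0.00119) and Stat2 (-0.37 ± 0.12, adjusted p = 0.0455), and the fall was smaller at Stat6 (0.33 ± 0.08, adjusted p = 0.00796). The calls were thus 1 higher and 3 lower, whereas 14.2% of 13426 genes were called higher and 4.22% lower. Jak2 (-0.03, 95% confidence interval -0.24 to 0.18) and Jak1 (0.04, -0.26 to 0.35) did not pass, nor did Stat5a (-0.20, -0.41 to 0.01) or Tyk2 (-0.42, -0.74 to -0.10; adjusted p = 0.0612).

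By 18 h the interaction was positive at Jak2 (0.58 ± 0.10, adjusted p = 7.5e-04), Stat5a (0.49 ± 0.10, adjusted p = 0.00295) and Stat3 (0.40 ± 0.13, adjusted p = 0.0493), and negative at Stat6 (-0.31 ± 0.08, adjusted p = 0.0138). Over all 13566 genes, 4.85% were called higher and 9.89% lower. The Stat5b call at 1 h was lost in the 5-prime part of the gene (-0.25, adjusted p = 0.142) and within 500 bp of the start (-0.06, adjusted p = 0.884). That of Stat3 at 1 h was lost within 500 bp of the start (-0.29, adjusted p = 0.387). The Stat5a call at 18 h was lost there too (0.17, adjusted p = 0.857) and held in the 5-prime part (0.41, adjusted p = 0.0452). The Stat2 call at 1 h held in 4 of 22 alternative settings, with adjusted p up to 0.254, and the Stat3 call at 18 h in 5 of 23, with adjusted p up to 0.902. Centring the libraries on their medians gave 0 genes higher and 6 lower at 1 h, where 6.72% of all genes were then higher and 12.9% lower. At 18 h it gave 4 higher and 0 lower, with 9.83% and 5.63% of all genes. It took the Stat6 calls at both times (0.11, adjusted p = 0.331, and -0.14, adjusted p = 0.225).

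Untreated macrophages of the genotypes were alike at most of these genes. Stat5b was called, with 562, 554 and 579 tags in Nur77-KO against 435, 505 and 467 in WT (0.27 ± 0.07, adjusted p = 0.0291; 1.21 times). This is 1 of 8 genes, in a comparison in which 4.17% of 13230 genes were called higher. The call was lost without any single one of 5 of the 6 libraries (adjusted p = 0.0532–0.0809) and in the 5-prime part of the gene (0.16, adjusted p = 0.334). Elsewhere log2 changes ran from -0.10 at Stat2 (interval -0.29 to 0.08) to 0.14 at Jak1 (-0.08 to 0.35), with adjusted p from 0.523 to 0.858.

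At 1 h of LPS, Stat2, Stat3, Stat5b and Tyk2 carried less Pol II in Nur77-KO than in WT cells, and Stat6 more. Among all 12079 genes, 38.1% were called higher and 7.53% lower in Nur77-KO, and the median log2 change was 0.24, beside -0.22 over the 8 genes.

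Stat3 held 548, 507 and 520 tags in Nur77-KO against 814, 725 and 756 in WT (-0.53 ± 0.09, adjusted p = 2.16e-04), or 0.687 of the WT mean. Within 500 bp of its start the difference was -0.03 (adjusted p = 0.87). Stat2 held 987, 992 and 1263 against 1578, 1438 and 1467 (-0.47 ± 0.09, adjusted p = 3.78e-04). Stat5b held 784, 818 and 734 against 966, 915 and 972 (-0.29 ± 0.07, adjusted p = 0.00404). Every Nur77-KO library of these genes lay below every WT library, although replicate 3 of Stat2 lay nearer to WT than the other two.

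Tyk2 held 1119, 1035 and 819 tags in Nur77-KO against 1296, 1252 and 1239 in WT (-0.36 ± 0.11, adjusted p = 0.0116). Replicate 3 was lowest, and without it the difference was -0.23 (adjusted p = 0.0799). Stat6 held 1682, 1585 and 1584 against 1206, 1261 and 1261 (0.38 ± 0.06, adjusted p = 5.46e-05), and the groups did not overlap.

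Values for the other kinases and Stat5a were close in both genotypes. Jak2 held 5689, 5727 and 5768 tags in Nur77-KO (-0.06, interval -0.22 to 0.09, adjusted p = 0.474), Jak1 held 2859, 2796 and 2869 (0.18, -0.04 to 0.39, adjusted p = 0.159), and Stat5a held 2363, 2326 and 2385 (-0.16, -0.31 to -0.01, adjusted p = 0.0799). None of these 3 genes had overlapping groups, but none passed the test. The share of all genes without overlap is not given, and 38.1% of all genes were called higher and 7.53% lower. With libraries centred on their medians, Jak2 (-0.31) and Stat5a (-0.41) were called lower as well and Stat6 lost its call (0.13, adjusted p = 0.0564), and over all genes 15.8% were then higher and 21.2% lower.

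By 18 h the difference had turned at Stat3, with 2264, 2203 and 2282 tags in Nur77-KO against 1609, 1553 and 1606 in WT (0.50 ± 0.09, adjusted p = 7.74e-04; 1.42 times). Jak2 held 4556, 4503 and 4433 against 3015, 3061 and 3129 (0.55 ± 0.07, adjusted p = 2.28e-05; 1.47 times). Stat5a held 637, 696 and 594 against 419, 480 and 430 (0.53 ± 0.07, adjusted p = 3.86e-05; 1.45 times). In the 5-prime part of Stat5a the difference was 0.26 (adjusted p = 0.0512), and within 500 bp of its start 0.13 (adjusted p = 0.864). In all 3 genes each Nur77-KO library was above each WT library, which was also so at Tyk2, Jak1 and Stat2 without a call. This describes single genes, and the share of all genes without overlap is not given.

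Stat6 again went the other way, with 1406, 1393 and 1319 tags in Nur77-KO against 1643, 1618 and 1663 in WT (-0.26 ± 0.06, adjusted p = 0.00303). Tyk2 held 1668, 1596 and 1558 tags in Nur77-KO, all above the WT libraries, and did not pass (0.27, interval 0.04 to 0.49, adjusted p = 0.0871). Jak1 (2538, 2650 and 2475; adjusted p = 0.226), Stat2 (3799, 3714 and 3662; adjusted p = 0.564) and Stat5b (1200, 1203 and 1184; adjusted p = 0.968) did not pass either.

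The calls at 18 h were 3 higher and 1 lower among 8 genes, where 7.55% of 12806 genes were called higher and 13.4% lower and the median was -0.10, beside 0.22 over the members. With centred libraries 6 members were called higher (Stat2, Stat3, Stat5a, Jak1, Jak2 and Tyk2) and Stat6 was not called (-0.12, adjusted p = 0.11), while over all genes 15.2% were then higher and 7.75% lower. The comparisons of genotypes at 1 h and 18 h rest on different libraries, while both interactions share the untreated ones.

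**Figure D3:**
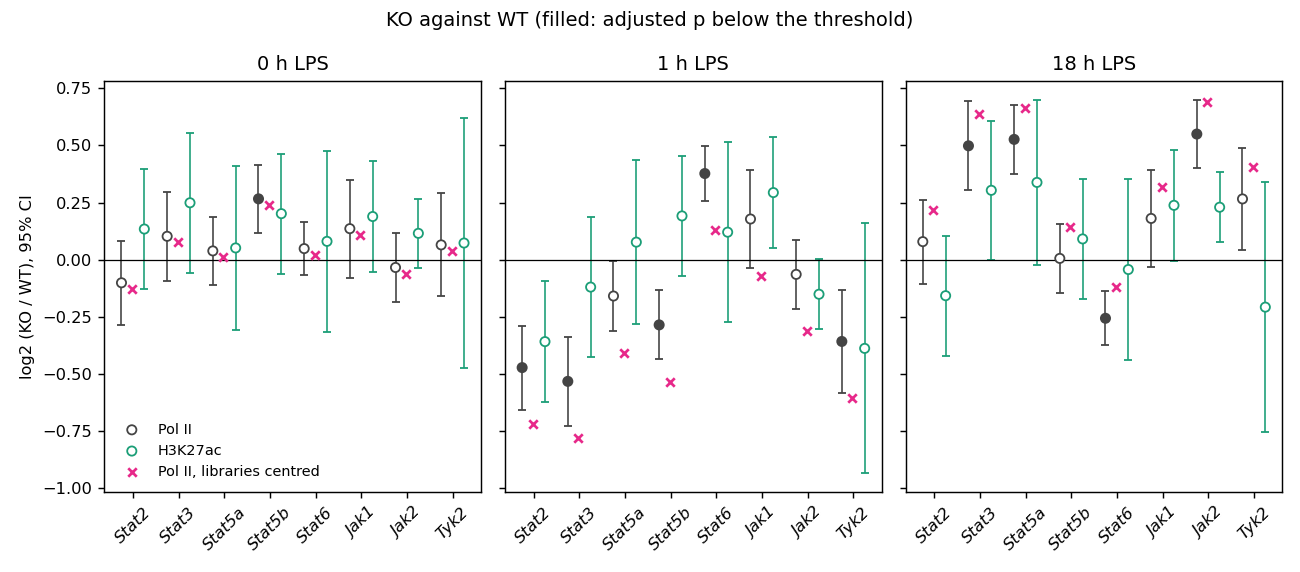
Log2 difference of Nur77-KO against WT at 0, 1 and 18 h of LPS (1 panel per time) for the 8 tested genes, Pol II dark and H3K27ac green, with 95% confidence intervals from limma and filled symbols for an adjusted p under 0.05; magenta crosses give Pol II with the libraries centred on their medians. Stat3 lay at -0.53 for Pol II at 1 h and at 0.50 at 18 h, Stat6 went from 0.38 to -0.26, and no H3K27ac symbol is filled.

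Called regions joined Stat3 and Stat5a after LPS, which touches both genes. At 1 h a region of 29.3–30.6 kb covered all of Stat5a and the 3′ end of Stat3, and at 18 h a region of 61.0–65.3 kb covered all of Stat3 and the end of Stat5a. Within the 5-prime part of the window, up to its middle, Stat3 held 164, 194 and 177 tags at 0 h and 330, 246 and 307 at 1 h in WT, and 168, 221 and 195 and then 181, 195 and 193 in Nur77-KO. There the genotype difference of Stat3 was -0.60 at 1 h (adjusted p = 2.62e-04), and the WT rise at 1 h was 0.69. In Nur77-KO the change of Stat3 at 1 h was -0.03 there (adjusted p = 0.82). The genotype difference of Stat5a at 18 h was 0.26 there (adjusted p = 0.0512). Those of Stat5b (-0.10, adjusted p = 0.355) and Tyk2 (-0.15, adjusted p = 0.292) at 1 h were not called there. Where 1 region covered a whole gene, its tags were spread evenly and this part repeats the value of the gene. Stat5a and Stat2 at 1 h, Stat3 and Jak2 at 18 h, and Stat6 at both times therefore could not be checked in this way. Within 500 bp of the Stat3 start the genotype difference at 1 h was -0.03 (adjusted p = 0.87).

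H3K27ac at the gene starts rose with LPS at 7 of 8 genes in WT cells at both times, and not at Stat6. At 1 h the median log2 change was 1.15, beside -0.05 over 11916 genes of which 25.2% were called higher and 29.2% lower, and at 18 h it was 0.56, beside -0.03 over 11803 genes with 23.5% higher and 26.4% lower. Stat5a and Tyk2 gained most at 1 h, Tyk2 and Stat2 at 18 h, but the size at Tyk2 depends on the window.

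Tyk2 went from 147, 164 and 146 normalized tags at 0 h to 743, 693 and 777 at 1 h (2.20 ± 0.26, adjusted p = 3.59e-06) and 743, 687 and 715 at 18 h (2.16 ± 0.26, adjusted p = 4.5e-06). Jak2, whose start had 372, 363 and 352 tags before LPS although its Pol II was near input, reached 1341, 1224 and 1379 at 1 h (1.83 ± 0.07, adjusted p = 3.03e-11) and 785, 895 and 815 at 18 h. Jak1 went from 208, 214 and 205 to 397, 400 and 428 tags (0.93 ± 0.11, adjusted p = 5.21e-06), and held 303, 269 and 312 at 18 h. None of these LPS libraries overlapped the untreated ones. The called region at Tyk2 grew from 1.93–2.50 kb in untreated WT to 15.2–16.9 kb after LPS, and its share of tags within the window then rests on even spreading. Within 1000 bp of the start Tyk2 rose by 1.08 at 1 h and 1.04 at 18 h, and with whole regions counted by 3.86 and 3.77.

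Stat5a showed the same early peak as in Pol II, with 144, 120 and 165 tags at 0 h, 560, 616 and 645 at 1 h (2.02 ± 0.17, adjusted p = 1.12e-07) and 215, 197 and 206 at 18 h (0.51 ± 0.17, adjusted p = 0.021). The call at 18 h was lost without WT replicate 2 at 0 h (0.40, adjusted p = 0.099) or replicate 1 at 18 h (0.48, adjusted p = 0.0627). In a narrow window at the start it was lost too (adjusted p = 0.147), and it held in 13 of 17 alternative settings. Stat2 kept rising, from 250, 259 and 215 tags through 625, 721 and 580 to 830, 886 and 876 (1.80 ± 0.12 at 18 h, adjusted p = 9.71e-09). Stat5b held 155, 144 and 157 tags at 0 h, 287, 291 and 298 after 1 h and 215, 240 and 242 after 18 h, and rose at both times (0.90 ± 0.12 and 0.58 ± 0.12).

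Stat3 gained least of the 7 at 1 h, from 180, 244 and 250 tags to 259, 354 and 350 at 1 h (0.50 ± 0.14, adjusted p = 0.00835) and 321, 316 and 350 at 18 h. Without WT replicate 1 at 0 h, the lowest of its group, the change at 1 h was 0.35 (adjusted p = 0.056). Stat6 had the most H3K27ac at rest (936, 967 and 999 tags) and showed no called change at 1 h (1066, 973 and 812; -0.03, interval -0.43 to 0.36) or 18 h (1166, 1051 and 1154; 0.21, -0.18 to 0.61).

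**Figure D4:**
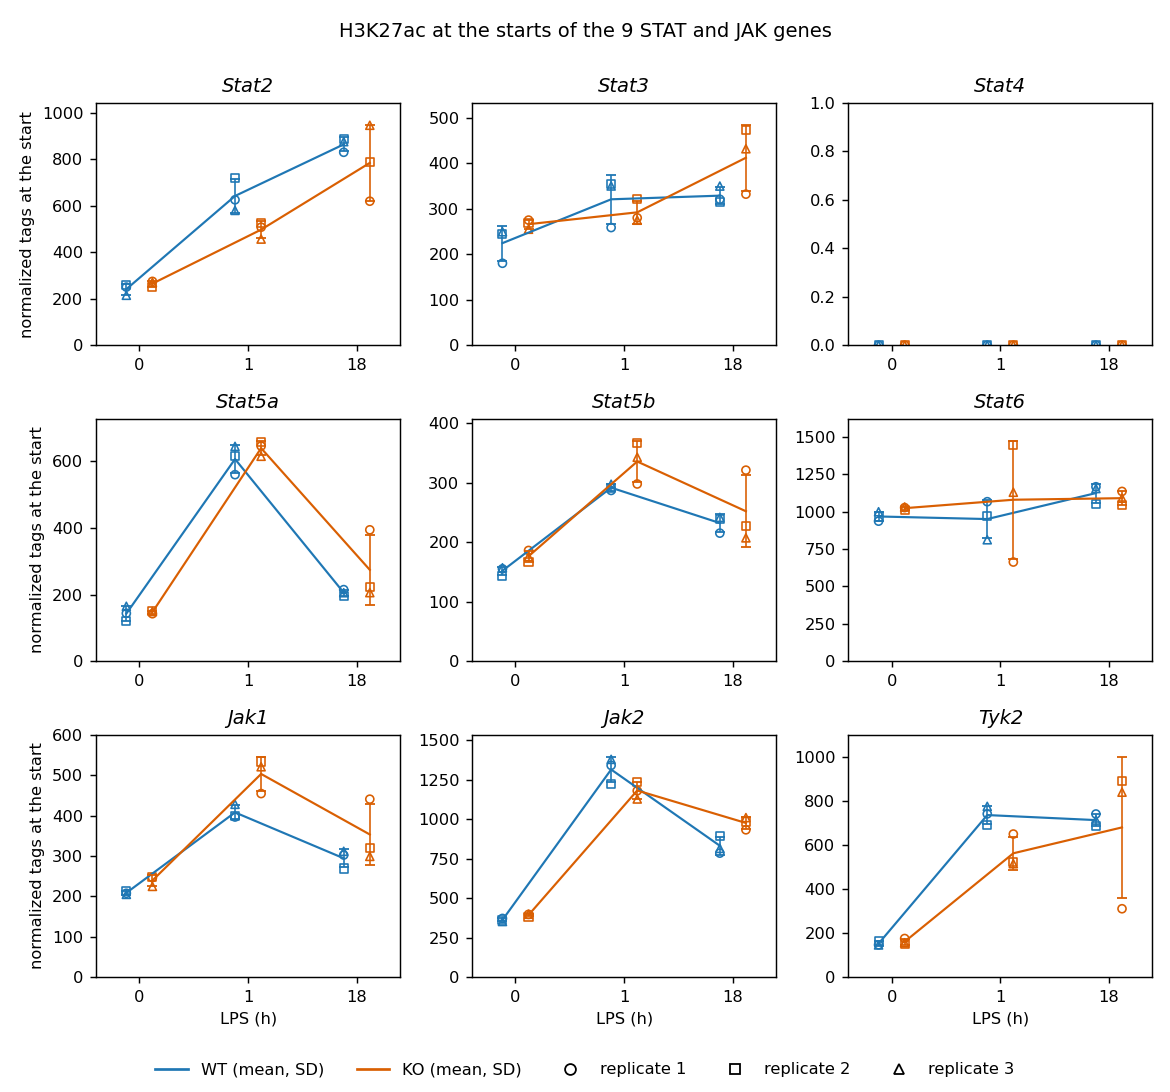
H3K27ac within 2500 bp of each gene start (normalized tags) against hours of LPS, with 1 panel per gene, 1 point per library and replicate number by marker shape. Lines join the means of 3 WT (blue) or 3 Nur77-KO (orange) libraries and bars are SDs. Nur77-KO replicate 1 at 18 h lay apart at Tyk2 (311 tags beside 892 and 842) and Stat5a (395 beside 223 and 206), and at 1 h at Stat6 (663 beside 1446 and 1130).

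In Nur77-KO, 6 genes gained H3K27ac at 1 h, of which Stat5a gained most (2.05 ± 0.17), while Stat3 (0.13 ± 0.14, adjusted p = 0.492) and Stat6 were not called. The background was 20.4% of 12011 genes. Tyk2 gained 1.74 ± 0.26, but within 1000 bp of the start 0.54, which was not called (adjusted p = 0.0917). At 18 h 7 genes were called higher, where 18.4% of 11999 genes were, and Stat6 was not (0.09, adjusted p = 0.71). Jak1 lost its call at 18 h within 1000 bp of the start (0.20, adjusted p = 0.112). With Nur77-KO replicate 1 left out at both times, 7 genes were called higher at 1 h, now with Stat6, beside 30.2% of all genes. At 18 h 7 were called higher, beside 21.7%. With replicate 1 as the only Nur77-KO library of 1 h, 6 were called higher and Stat6 lower at 1 h, beside 24.2% higher and 35.1% lower over all genes.

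No member differed in H3K27ac between genotypes with all libraries in the limma fit: 0 of 8 at 0 h, at 1 h and at 18 h, with 0, 2 and 1 genes at an unadjusted p under 0.05. The called share of all genes in either direction was 0.77% of 11817 at 0 h, 18.2% of 11828 at 1 h and 3.2% of 11465 at 18 h. Quantile normalization called Jak1 higher and Stat2 lower at 1 h, where 11.8% of all genes were higher and 10.7% lower, and Jak2 higher at 18 h, where 1.48% were higher and 1.25% lower. Nearest to a call were Stat2 at 1 h, with 508, 527 and 457 tags in Nur77-KO (-0.36, interval -0.62 to -0.10, adjusted p = 0.0546), Jak1 at 1 h, with 455, 535 and 522 (0.29, 0.05 to 0.54, adjusted p = 0.079), and Jak2 at 18 h, with 933, 985 and 1010 (0.23, 0.08 to 0.38, adjusted p = 0.0888). In these 3 cases the groups did not overlap, which does not set them apart. It was also so at uncalled members such as Tyk2 and Stat5b at 1 h. No interaction passed at 1 h or at 18 h either (2 and 0 genes at an unadjusted p under 0.05), where 0.535% of 12154 and 0.605% of 12067 genes did.

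These counts changed without the libraries that stood apart. With Nur77-KO replicate 1 left out at both 1 h and 18 h, 5 members were called at 1 h: Tyk2 (-0.50, adjusted p = 3.3e-05) and Stat2 (-0.38, adjusted p = 0.0058) lower, and Stat6 (0.43, adjusted p = 0.00317), Jak1 (0.36, adjusted p = 2.65e-04) and Stat5b (0.27, adjusted p = 0.0033) higher. In the same fit 35.5% of 11785 genes were called higher and 24.3% lower. At 18 h 3 were called, all higher, where 4.24% of 11364 genes were higher and 14.7% lower: Stat3 (0.45, adjusted p = 0.0317), Tyk2 (0.27, adjusted p = 0.0157; -0.21 with all libraries) and Jak2 (0.26, adjusted p = 0.0158). With replicates 2 and 3 of 1 h left out in place of replicate 1, the Nur77-KO group of 1 h was 1 library, which is assumed to vary like the other groups. The call at 1 h was then Stat6 alone, now lower (-0.50, adjusted p = 0.0198), where 3.81% of 11768 genes were higher and 4.77% lower. The change of Stat6 with 1 h of LPS in Nur77-KO was likewise 0.32 (adjusted p = 0.0193) without replicate 1 and -0.62 (adjusted p = 6.41e-04) with it alone. Which of these libraries match their labels was not tested, and the values after LPS in Nur77-KO are those of the libraries labelled so.

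Receptors, inhibitors and partners of the pathway were counted from a list of 45 genes, of which 43 could be tested for Pol II in WT at 1 h. LPS moved them both ways: of 19 receptor genes 8 were higher and 11 lower at 1 h, of 18 inhibitors 10 and 6, and of 6 partners and adaptors 2 and 2, beside 18.5% higher and 68.3% lower over all genes. At 18 h the counts were 12 higher and 7 lower of 20 receptors, 12 and 4 of 18 inhibitors and 5 and 0 of 6 partners, beside 33.2% and 33.3% over all genes. Their median log2 change was 0.12 at 1 h and 0.48 at 18 h, beside -0.82 and 0.00 over all genes.

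Among receptors, Il15ra, the private chain of the interleukin 15 receptor, rose from a mean of 60.0 to 1043 tags at 1 h (3.92 ± 0.09) and 2509 at 18 h. Il6ra, the interleukin 6 receptor, fell from 454 to 34.7 tags at 1 h (-3.41 ± 0.14), and Il21r from 1524 to 215 (-2.77 ± 0.08). At 18 h Il12rb1, a chain of the interleukin 12 receptor, rose from 1.70 to 324 tags, while Lifr and Il27ra were listed at 0. Of the inhibitors, Socs3, which blocks gp130 receptors and their JAKs, rose from 23.4 to 2997 tags (6.51 ± 0.13), with a smaller rise of Cish (4.77 ± 0.14). Socs6 fell at 1 h (-2.45 ± 0.11), and Usp18, which restrains the type I interferon receptor, rose at 18 h (3.36 ± 0.12). Irf9, the partner of STAT2, rose at 1 h from 442 to 668 tags (0.60 ± 0.12, adjusted p = 1.42e-04).

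Between genotypes, Pol II in the untreated cells was called higher at 3 receptors and lower at 1 of 19, and higher at 1 and lower at 2 of 18 inhibitors, beside 4.17% higher and 2.71% lower over all genes. At 1 h the counts were 7 higher and 2 lower of 18 receptors, 4 and 2 of 17 inhibitors and 4 and 0 of 6 partners, beside 38.1% and 7.53% over all genes. Usp18 held a mean of 234 tags in Nur77-KO and 453 in WT (-0.93 ± 0.12, adjusted p = 1.34e-05), Socs3 2308 and 2997 (-0.38 ± 0.13, adjusted p = 0.0234), and Csf2rb, the signalling chain of the GM-CSF receptor, 1093 and 1394 (-0.35 ± 0.06, adjusted p = 2.28e-04). Higher in Nur77-KO were Il21r (379 and 215 tags, 0.79 ± 0.09) and Ptpn11, the phosphatase SHP2 (517 and 300 tags, 0.76 ± 0.14).

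At 18 h of LPS 2 receptors were higher and 7 lower of 19, 2 inhibitors higher and 4 lower of 17, and 1 partner higher of 6, beside 7.55% higher and 13.4% lower over all genes. Usp18 then lay at 2776 tags in Nur77-KO and 2102 in WT (0.40 ± 0.12, adjusted p = 0.0257) and Il15ra at 3247 and 2509 (0.37 ± 0.09, adjusted p = 0.00771). Ifngr1, the ligand-binding chain of the interferon gamma receptor, lay lower at 365 and 564 tags (-0.61 ± 0.08, adjusted p = 1.3e-05). All 3 genes had been called the other way in untreated cells, Usp18 at 141 tags in Nur77-KO and 199 in WT (-0.45, adjusted p = 0.031), Il15ra at 45.4 and 60.0 (-0.33, adjusted p = 0.0374) and Ifngr1 at 1376 and 1107 (0.31, adjusted p = 0.0157). They are a selection. Ptpn2 (0.33), Nmi (0.40), Socs5 (-0.46) and Ptpn11 (-0.45) were called at 18 h but not in untreated cells.

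In H3K27ac, LPS at 1 h in WT called 8 receptors higher and 5 lower of 20 and 9 inhibitors higher and 3 lower of 17, with Socs3 (4.32 ± 0.10) and Cish (3.99 ± 0.27) first, beside 25.2% higher and 29.2% lower over all genes. Nur77-KO against WT at 1 h gave 3 inhibitors higher and 6 lower of 17, beside 11% and 7.26% over all genes. Among the lower were Cish (-1.24 ± 0.27, adjusted p = 0.00882) and Socs3 (-0.71 ± 0.10, adjusted p = 6.8e-04). Among the higher were Socs6 (1.24 ± 0.26, adjusted p = 0.00657) and Ptpn11 (0.44 ± 0.11, adjusted p = 0.0135). At 18 h Usp18 was called lower (-0.50 ± 0.11, adjusted p = 0.021), opposite to its Pol II. Without Nur77-KO replicate 1 at 1 h and 18 h, 5 inhibitors were higher and 8 lower at 1 h, beside 35.5% and 24.3% over all genes. Cish then lay at -1.74, Socs3 at -0.82 and, at 18 h, Usp18 at -0.37 (adjusted p = 0.00626). With replicate 1 as the only Nur77-KO library of 1 h, 0 inhibitors were higher and 3 lower, beside 3.81% and 4.77% over all genes, Cish was not called (-0.25, adjusted p = 0.386) and Socs3 lay at -0.50 (adjusted p = 0.0121).

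Genes whose Pol II pattern over the 6 group means was most like that of a member were found by Pearson's r of log2(tags + 10) among 10372 genes, as a description over few points. For Jak2 these were Traf1 (0.9996) and Agrn (0.9994), for Stat5a Cd40 (0.9987) and Larp1 (0.9984), and for Jak1 Golgb1 (0.9993) and Bcl2a1a (0.9982). For Stat2 they were Slfn3 (0.9993) and Dhx58 (0.9992), and for Tyk2 Slfn5 (0.9984) and Ttll12 (0.9979). Stat3 was nearest to Espn (0.997) and Arel1 (0.9962), and Stat5b to 4930518I15Rik (0.9977) and Psme2 (0.9968). Stat4 and Stat6 spanned less than 1 log2 unit and were left out.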

How the data were processed

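Per the labels and the study's methods, the authors immunoprecipitated Pol II or H3K27ac from formaldehyde-crosslinked BMDMs, trimmed the reads with Skewer, aligned them to mm10 with HISAT2 (version 2.1.0 in the submitters' processing notes), removed duplicates, and called broad regions with HOMER in each library on its own. Per the file headers, windows of 500 bp past a Poisson p of 0.001 were stitched within 1000 bp, with no input control. The deposited values are a signal, the tags per region normalized by the authors to 10 M tags per library (M is mega), so that signal outside called regions is missing and depth is given only as a total.

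Tags were shared by overlap with windows of 21897 protein-coding genes (GENCODE vM21, GRCm38), after 54 with a repeated symbol were left out. Genes above 0 in at least 2 of 3 libraries of a compared group were tested with limma 3.58.1 (R 4.3.3, 6 group means, trended variance) on log2(tags + 10). P-values were adjusted over all genes tested. The fit was tested on simulated data. The value tables were made with Python 3.11.15 and pandas 2.3.3.

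The members and lists were chosen with earlier results of these data known. Pathway genes are named by 1 rule: per role and comparison, the largest called changes without overlap of the groups, up to 2 higher and 2 lower, and a selection of these is printed. Alternatives were another pseudocount, filter, scaling, window, whole regions, a common floor, regions without those of input, a replicate block and each library left out. The window to the middle of the gene and the joint omission of H3K27ac libraries were added after seeing the data. Protein sequences were not used here. For the Pol II antibody, labels and methods name separate catalogue entries.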

Additional observations from a re-analysis of the deposited data

Results flagged for a closer look

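The response of Pol II to LPS differed between genotypes, by the limma interaction term, in 8 cases at 6 genes. Over all genes, 14.2% were called higher and 4.22% lower at 1 h, and 4.85% and 9.89% at 18 h. At 1 h the differences of log2 changes (Nur77-KO minus WT) were -0.64 at Stat3, -0.55 at Stat5b, -0.37 at Stat2 and 0.33 at Stat6. At 18 h they were 0.58 at Jak2, 0.49 at Stat5a, 0.40 at Stat3 and -0.31 at Stat6. Stat3 and Stat6 were flagged at both times with opposite signs, and these interactions share the untreated libraries. Stat2 at 1 h and Stat3 at 18 h passed narrowly (adjusted p = 0.0455 and 0.0493). Stat5b at 1 h was not called in the 5-prime part of the gene (-0.25, adjusted p = 0.142), nor Stat3 at 1 h within 500 bp of the start (-0.29, adjusted p = 0.387). Stat5a at 18 h was not called within 500 bp of the start either (0.17, adjusted p = 0.857). The Stat6 values lost their calls when the libraries were centred on their medians. Before centring, the median interaction of all genes was 0.17 at 1 h and -0.14 at 18 h.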

How the results depend on the processing

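Over the 8 tested genes and both antibodies, another pseudocount kept 142 of 144 results on their side of the threshold and no filter 141. A common floor on region density lost 3 calls of 144, and 3 other results changed sign without a call in either fit. The omission of 1 library lost 30 calls and gained 10 among 1056 results. Another 40 changed sign without a call in either fit. Counts of members called for Pol II over the omitted libraries were 0–1 for Nur77-KO against WT at 0 h, 4–5 at 1 h and 4 at 18 h, 3–4 for each interaction, and 7–8 for each LPS response. For H3K27ac they were 0–3 for Nur77-KO against WT at 1 h (3 without Nur77-KO replicate 1), 0 for the other genotype comparisons and interactions, and 6–7 for the LPS responses. Replicate numbers did not pair the libraries (correlation of same-numbered deviations from -0.072 to 0.107 for Pol II and from -0.432 to 0.0794 for H3K27ac, with the lowest 3 between Nur77-KO at 1 h and 18 h). With the replicate number as a block, 142 of 144 results kept their side, and the interactions of Stat2 at 1 h (adjusted p = 0.0534) and Stat3 at 18 h (adjusted p = 0.0641) lost their calls, which left 3 called at each time. The shares of all genes called without 1 library and with the block are not given. Counts of members in those fits cannot be set against them. Depth differed by antibody and genotype and limits the low values most, since tags outside called regions are missing.

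For Pol II, Nur77-KO against WT at 0 h had 0 members called, in place of 1, in the narrow window of 500 bp at the start, with whole regions, without input regions, with the common floor and in the 5-prime part. At 1 h the 5 calls became 2 in the narrow window, 1 without input regions (3 genes had a value) and 3 in the 5-prime part, and at 18 h the 4 calls became 2 in the narrow window and 0 without input regions, where of the 4 only Stat5a had a value. Without input regions 7.48% of all genes were called higher and 6.97% lower at 1 h, and 4.23% and 4.18% at 18 h. Where 1 region covers a gene, the narrow window and the 5-prime part hold an average of the gene. The 4 interaction calls at 1 h became 0, 0 and 2 in these settings, and the 4 at 18 h became 0 in the narrow window and 0 without input regions. Without input regions 1.58% of all genes were called higher and 1.99% lower at 1 h, and 2.17% and 2.16% at 18 h. The shares of all genes in the narrow window, in the 5-prime part, with whole regions and with the common floor are not given. Counts in those settings cannot be set against them. The LPS calls in WT were 4 in place of 7 at 18 h in the narrow window, and in Nur77-KO 5 in place of 8 at 1 h. Without input regions Stat2 and Stat6 had no value, and 45 of 72 Pol II results had one. There the 8 LPS calls in WT at 1 h became 5, and the 8 calls in Nur77-KO became 3 at 1 h and 4 at 18 h, all of them lower, as were the 5 in WT at 18 h. The share of all genes called lower was then 42.4% (1 h) and 27% (18 h) for WT, and for Nur77-KO 43.6% and 31.6%. For H3K27ac, the 0 calls of Nur77-KO against WT at 1 h became 2 with quantile normalization and 3 with whole regions, and at 18 h 1 with quantile normalization, and the 0 interaction calls at 1 h became 1 with whole regions. Without Nur77-KO replicate 1 at 1 h and 18 h these counts were 5 and 3, with 3 and 1 interaction calls, all lower, where 22.9% and 12.2% of all genes were lower and 24.9% and 2.13% higher. Without Nur77-KO replicates 2 and 3 at 1 h and replicate 1 at 18 h they were 1 and 3, with 1 interaction call at 1 h (2.54% of all genes lower and 1.11% higher), and the 1 library left in Nur77-KO at 1 h is assumed to vary like the other groups.

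Among results called in the main fit or in the alternative, directions turned as follows, on the log2 scale. Results called in neither also changed sign and are not listed. These were 11 of 144 in the narrow window, 7 with quantile normalization, 4 with centring and 4 with whole regions. In the 5-prime part they were 4 of 72. In the narrow window Stat5b lay at -0.13 for Nur77-KO against WT at 0 h and at -0.029 and -0.094 after 1 h of LPS in WT and Nur77-KO. There Jak1 lay at -0.68 and -0.67 after 1 h and 18 h in WT and at -0.59 and -0.71 in Nur77-KO, averages of nearly the whole gene after LPS against regions called at the start before it, and Stat3 at -0.25 after 1 h in Nur77-KO (-0.027 in the 5-prime part). Centred on the medians, Stat6 lay at 0.31 and 0.41 after 1 h in WT and Nur77-KO. Stat6 H3K27ac lay at 0.20 after 1 h in WT with whole regions. With the H3K27ac libraries that stood apart left out, Tyk2 lay at 0.27 for Nur77-KO against WT at 18 h in both settings. With replicate 1 of 1 h kept and replicates 2 and 3 left out, Stat6 lay at -0.50 for Nur77-KO against WT at 1 h, at -0.62 for LPS in Nur77-KO at 1 h and at -0.58 for the interaction.

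Leaving out Pol II regions that overlap an input region removes most of the long regions formed after LPS, by construction, and no H3K27ac value of a member was left under it. After 1 h in WT, Stat3 then lay at -0.77, Stat5a at -3.003, Jak1 at -3.52, Jak2 at -0.53 and Tyk2 at -2.87. After 18 h in WT, Stat3 lay at -3.12, Stat5a at -1.27, Jak1 at -3.52, Jak2 at -0.53 and Tyk2 at -4.09. In Nur77-KO after 1 h, Stat3 lay at -2.14, Stat5a at -3.25, Stat5b at -1.05, Jak1 at -3.34 and Tyk2 at -1.48. In Nur77-KO after 18 h, Stat3 lay at -3.26, Stat5a at -1.04, Stat5b at -1.41, Jak1 at -3.34 and Tyk2 at -4.19. Tyk2 lay at 1.495 for Nur77-KO against WT at 1 h, and Stat3 at -0.15 for the interaction at 18 h. Apart from this setting's construction, the cause of these changes was not tested.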
